A study of Drosophila melanogaster with 6 samples.

Results

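The 200 probe sets that were brightest in the fat body of wild-type Drosophila melanogaster larvae were followed into the fat body of srl1 mutant larvae. All 18769 probe sets other than the array's control probe sets were ranked by their lowest scaled signal over the 3 wild-type arrays, and the 200 highest ranked were taken. The members were thus selected on measured wild-type values, and their wild-type levels are given as a description, with no test. A probe set is a group of short probes for a transcript, and its brightness also depends on how well its probes bind. The list is therefore a list of bright probe sets, and the ranks do not compare amounts of RNA between genes.

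The mutant larvae were srl1/srl1 and the controls srlwt/srlwt, which the series title describes as genetically matched. The gene spargel (srl) is the Drosophila counterpart of the mammalian PGC-1 family of coactivators, and srl itself was not analysed here. Each group had 3 samples, which the series' design calls biological replicates, and each sample pooled 20 fat bodies, dissected from larvae aged 5 days. The extraction text gives that age for mutant larvae and is repeated word for word for the controls. The p-values below treat these 6 samples as the units. Those for single probe sets weigh the difference between the groups against the spread within the groups. In a pooled tissue, fewer cells of a type and less RNA per cell cannot be told apart.

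The larval fat body stores lipid, glycogen and protein and secretes most proteins of the haemolymph, the insect's blood. Its cells carry large amounts of mRNA for storage proteins, lipoproteins, metabolic enzymes and the machinery of protein synthesis. In mammals PGC-1 coactivators regulate genes of mitochondrial function, and spargel has been studied in the same connection in the fly.

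Of the 200 members, 133 carried 1 gene symbol, for 129 genes. Another 64 had none in the annotation used here, and 3 had several, so these 67 are described by rank only. The name endings that Affymetrix gives to probe sets matching several transcripts were common: 34% of members ended in s_at and 18.5% in a_at, against 15.1% and 12.6% of all tested probe sets. An s_at probe set can take signal from more than 1 gene. Role groups were assigned by hand to 86 members, in 12 roles, after their values had been seen.

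Signals were scaled to a common trimmed mean of 101, and the 8506 probe sets that reached a floor of 20.2 in 3 or more arrays were tested. All 200 members passed this filter, through their wild-type signal alone. Some arrays stood apart. In mutant replicate 1 the deposited trimmed mean was 47.1, against 98.5 to 127 in the other arrays, and its GAPDH 3'/5' signal ratio, a measure of RNA quality, was 4.28 against 1.55 to 2.18. The 7 salivary gland markers on the list, Sgs1, Sgs3, Sgs4, Sgs5, Sgs7, Sgs8 and Eig71Ee, were all measured. Summed, their scaled signal came to 45125, 7056 and 38441 for mutant replicates 1, 2 and 3, against 102, 65.6 and 26518 for the wild-type replicates. All 7 reached the floor in the mutant arrays and in wild-type replicate 3, and 1 of them did in wild-type replicates 1 and 2. Of 9 listed fat body markers 6 were measured, Lsp2, Fbp1, Fbp2, apolpp, FASN1 and Lpin. These were above the floor in every array, and Lsp2, Fbp2, apolpp and FASN1 were members. Summed over the 6, the signal was 71927, 40270 and 46555 for mutant replicates 1, 2 and 3, against 32984, 43265 and 42301 for the wild-type replicates. Fbp1 was not steady and ran from 41.0 in wild-type replicate 2 to 10594 in mutant replicate 1. Of the other lists, 4 of 7 muscle, 6 of 6 gut, 6 of 6 haemocyte and 2 of 3 gonad markers were measured. Summed signals of these measured markers lay between 7.33 and 216 for each tissue in every array.

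Mutant replicate 2 differed from the other mutant arrays across the members. Pearson's r of log2 signals over the 200 probe sets, which are not independent, was 0.97 between mutant replicates 1 and 3. Between mutant replicate 2 and these it was 0.81 and 0.83, and between mutant replicate 2 and the wild-type arrays 0.81 to 0.83. Over all tested probe sets r was 0.96 between mutant replicates 1 and 3. There mutant replicate 2 had 0.90 and 0.92 with these, and 0.95 to 0.97 with the wild-type arrays, so it was closer to the wild type. Among the 98 members for which the mean of mutant replicates 1 and 3 differed from wild type by more than 0.5 on the log2 scale, mutant replicate 2 lay a median of 0.29 of the way from the wild-type mean, and it was within the wild-type range at 30. Counts are therefore given with and without this array. It was singled out on these same values, so nothing is read from a rise in calls without it. With any other 1 array left out, 0 members were called higher and 0 lower.

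Of the 10 highest ranked probe sets, 5 had no symbol. The others were fon (rank 3), whose product takes part in haemolymph clotting, Lsp2 (rank 7), a larval serum protein that is stored for metamorphosis, RpLP0 (rank 8), a protein of the ribosomal stalk, apolpp (rank 9), the precursor of the main haemolymph lipoprotein, and FASN1 (rank 10), a fatty acid synthase. The rule value, the lowest wild-type signal, was 10160 at rank 1. At the limit it was 3097 for ACC, 3077 for Fer1HCH and 3034 for muc inside the list, and 3024 for GstE12, 3020 for lost and 3007 for NimB2 just outside it.

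**Figure D1:**
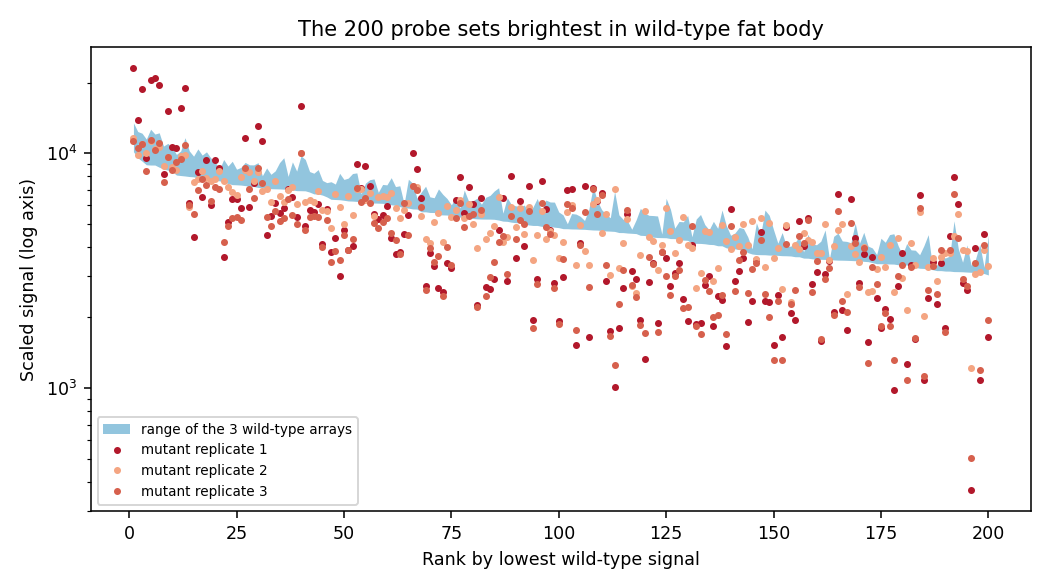
Scaled signal (log axis) of the 200 members against their rank by lowest wild-type signal. The band is the range of the 3 wild-type arrays and the points are the 3 mutant arrays. Points of mutant replicates 1 and 3 lie below the band more often than those of mutant replicate 2, and mutant replicate 1 lies above it for several of the first 13 ranks.

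These 5 named genes did not pass the test between mutant and wild type. Below, signals are always given in the order of replicates 1, 2 and 3. Signals of fon were 18770, 10910 and 10953 in the mutant and 9267, 12184 and 10762 in the wild type. For Lsp2 they were 19486, 10616 and 11049 in the mutant and 8728, 12230 and 11072 in the wild type. In both genes mutant replicate 1 stood above all other arrays, and the other mutant values lay within the wild-type range. RpLP0 had 8132, 8792 and 7567 in the mutant and 8581, 10739 and 9359 in the wild type, so the groups overlapped through mutant replicate 2. Signals of apolpp were 15202, 9679 and 9617 against 8481, 11027 and 9654, again with mutant replicate 1 alone at the top. FASN1 had 10682, 8752 and 8523 against 8668, 10628 and 8374, with overlapping groups. The log2 fold changes, mutant minus wild type, ran from -0.22 for RpLP0 to 0.32 for Lsp2 (limma adjusted p = 0.309 and 0.429).

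The signal of the brightest probe sets in mutant replicate 1 came with a scale factor of 2.14. Before scaling, the geometric mean of the first 10 members was 7065 in mutant replicate 1 and 10901 to 11579 in the other 5 arrays. The highest deposited signal of any member was 10730 in mutant replicate 1 and 12498 to 13306 in the others. Over its trimmed mean, the geometric mean of the first 10 was 150.0 in mutant replicate 1 and 89.3 to 118 in the other arrays. The part of the scale factor in the high values of mutant replicate 1 was not tested.

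The members held 30.3%, 32.0% and 27.8% of all scaled signal in the mutant, against 32.6%, 36.0% and 33.0% in the wild type. The means were 30.0% ± 2.13 and 33.9% ± 1.84 (SD, n = 3 each). Every mutant value was below every wild-type value, and since the wild-type arrays chose the list this share has no test. When each array chose its own 200 brightest probe sets, they held 35.1%, 32.8% and 31.3% in the mutant and 32.7%, 36.1% and 33.4% in the wild type. These groups overlapped, and the means differed by -1.0 percentage points (exact permutation test, two-sided, p = 0.6, where 3 against 3 cannot go below 0.1). The first 10 members alone held 4.75%, 3.07% and 3.14% in the mutant and 2.71%, 3.38% and 3.09% in the wild type, with mutant replicate 1 highest.

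Most members stayed among the bright probe sets of the mutant. Of each mutant array's own 200 brightest, 135, 179 and 141 were members, against 190, 191 and 187 in the wild-type arrays that made the choice. Among the 1000 brightest of each mutant array were 199, 200 and 199 of the 200 members. The member with the lowest place in all 3 mutant arrays was Ldsdh1, at ranks 1667, 590 and 1265.

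Across the list, mutant signals were lower more often than higher. The median log2 fold change was -0.34 over the members and 0.10 over all 8506 tested probe sets. It was below 0 for 148 members and above 0 for 52, and 23 members were more than 2-fold lower while none was more than 2-fold higher. Of all 8506 tested probe sets, 3558 were below 0 and 4948 above. Among these 8506, 411 were more than 2-fold lower and 586 more than 2-fold higher. Relative to the median of all tested probe sets the members' median was -0.44, and it was -0.18 after quantile normalization and -0.12 after cyclic loess. Median centring moved the median of all tested probe sets from 0.10 to -0.01 and left the relative value at -0.44.

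The size of this median went with the choice of members, and here a high wild-type signal was the rule. The 200 next in rank, chosen on the same wild-type arrays, had a median of -0.25. When 200 probe sets were instead chosen by their lowest signal over the 3 mutant arrays, the median was -0.03, with 96 above 0 and 104 below. Of these 200, 11 were more than 2-fold higher and 0 more than 2-fold lower. When 200 were chosen by their mean over all 6 arrays, the median was -0.23.

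By array, the members' median difference from the wild-type mean was -0.42, -0.11 and -0.47 on the log2 scale in the mutant and -0.08, 0.14 and -0.05 in the wild type. Within the list, members ranked 101 to 150 had the lowest median log2 fold change, -0.49, against -0.24 for ranks 1 to 50, -0.27 for ranks 51 to 100 and -0.27 for ranks 151 to 200. The median SD between replicates, on the log2 scale, was 0.26 for mutant and 0.15 for wild-type values of the members, against 0.31 and 0.20 for all tested probe sets.

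Few members passed the test. At an adjusted p under 0.05, 1 member was called higher and 4 lower in the mutant, or 0.5% and 2% of the list, where 0.764% and 0.623% of all tested probe sets were called. At an unadjusted p under 0.05 the counts were 5 higher and 78 lower, or 2.5% and 39%, against 15.0% and 12.3% of all tested probe sets. The 3 mutant values did not overlap the 3 wild-type values at 15 members that were higher and 76 that were lower, or 7.5% and 38% of the list. Over all tested probe sets these shares were 16.6% and 13.4%. After quantile normalization 31 members were higher and 65 lower without overlap, or 15.5% and 32.5%, against 13.0% and 16.0% of all tested probe sets. After median centring the counts were 4 and 87, or 2% and 43.5%, against 12.0% and 17.2%. After cyclic loess they were 42 and 58, or 21% and 29%, against 13.9% and 15.4%. Under both quantile normalization and cyclic loess the share of members that were higher moved from below to above that of all tested probe sets. Without mutant replicate 2, 8 members were called higher and 103 lower, or 4% and 51.5%, where 20.4% of all tested probe sets were called higher and 16.6% lower. Without both mutant replicate 2 and wild-type replicate 3, the counts were 4 and 99, or 2% and 49.5%, against 20.4% and 16.2% of all tested probe sets. The wild-type values that chose the members also enter these counts, so nothing is read from their direction. Among the 200 chosen on the mutant arrays, 42 were higher and 51 lower without overlap, or 21% and 25.5%.

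The largest of the called differences was in Ldsdh1 (rank 196), a dehydrogenase of the short-chain family found on lipid droplets. Its signal was 368, 1224 and 505 in the mutant and 3337, 3115 and 3172 in the wild type. All 3 mutant arrays were far below the wild type, mutant replicate 2 least so. It fell by 2.38 on the log2 scale (standard error 0.41, limma adjusted p = 0.0451). Fkbp14 (rank 118), whose product is a prolyl isomerase of the endoplasmic reticulum, had 2922, 2541 and 2436 in the mutant and 4552, 5204 and 4829 in the wild type. Here mutant replicate 2 lay between the other mutant values, and the groups were well apart. Its log2 fold change was -0.89 (standard error 0.13, limma adjusted p = 0.0360).

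The other calls were in genes known by their annotation numbers. CG10962 (rank 132) had 1881, 2670 and 1839 in the mutant and 5252, 5189 and 4137 in the wild type, or -1.20 on the log2 scale (limma adjusted p = 0.0406). CG10527 (rank 154) had 2093, 2321 and 2282 in the mutant and 3655, 3740 and 4022 in the wild type, or -0.77 on the log2 scale (limma adjusted p = 0.0406). CG32687 (rank 184) was the member that rose. It had 6664, 5624 and 5850 in the mutant and 3255, 3700 and 3241 in the wild type, or 0.83 on the log2 scale (limma adjusted p = 0.0406). In each of these 3 genes no mutant value reached the wild-type range, and mutant replicate 2 lay nearest to it. Over the 18 alternatives the adjusted p of the 5 genes ran from 0.000391 to 0.225. Leaving out any 1 of the 5 arrays other than mutant replicate 2 ended all 5 calls, and all 5 held without mutant replicate 2.

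**Figure D2:**
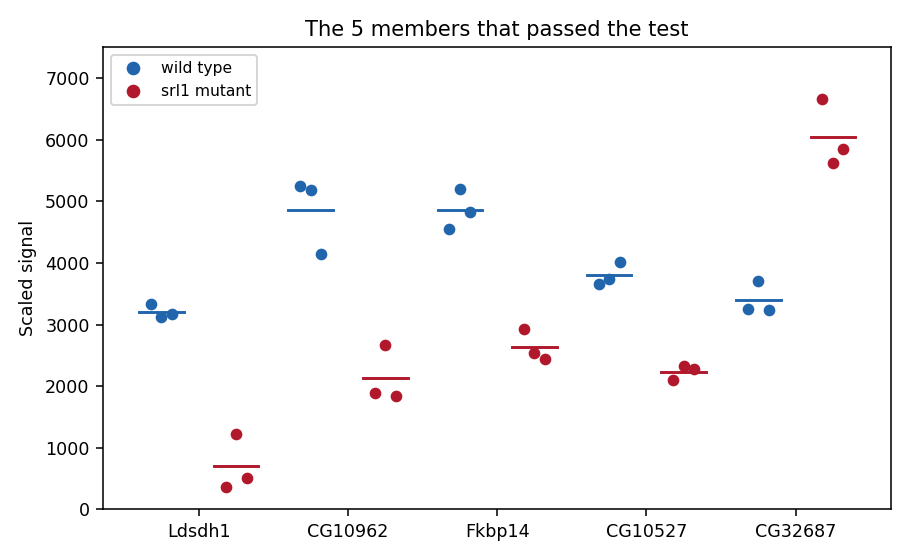
Scaled signal of the 5 members that passed the test, with 1 point per array and a line at each group's mean (3 arrays per group). In every gene the groups are separate, and CG32687 is the only one of the 5 that is higher in the mutant.

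By role, the cytosolic ribosomal proteins had the lowest median log2 fold change. These proteins make up the ribosome together with ribosomal RNA. The 11 members were RpLP0, RpL3, RpL15, RpL10Ab, RpS7, RpLP1, RpS26, RpS27A, RpS18, RpLP2 and RpS12. All 11 had a log2 fold change below 0, from -1.37 to -0.22, with a median of -0.75, except that RpLP0 was above 0 after cyclic loess. In 9 of the 11 every mutant array was below every wild-type array, where 13.4% of all tested probe sets were. None passed the test (limma), and 10 had an unadjusted p under 0.05, where 12.3% of all tested probe sets were lower at that level. Without mutant replicate 2, 10 of the 11 were called lower, where 16.6% of all tested probe sets were. With any other 1 array left out, 0 of the 11 were called.

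RpS12, a protein of the small subunit, had 1262, 2161 and 1088 in the mutant and 3761, 4131 and 3346 in the wild type. RpS27A, which is made as a fusion with ubiquitin, had 1746, 3037 and 1671 against 4663, 5317 and 4805. Mutant replicate 2 was the highest mutant array in both, and it was still below the wild type. Their log2 fold changes were -1.37 and -1.25 (standard errors 0.26 and 0.24, limma adjusted p = 0.0701 and 0.0730). RpL3, of the large subunit, had 4487, 7063 and 5338 against 7108, 8666 and 7540. There mutant replicate 2 lay just under the lowest wild-type array, and the log2 fold change was -0.49 (limma adjusted p = 0.170).

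The direction held under the other scalings for 10 of the 11. The median was -0.56 after quantile normalization and -0.86 after median centring with all 11 below 0. After cyclic loess it was -0.52, with RpLP0 above 0 at 0.04 and 2 of the 11 called lower. Together the 11 probe sets held 1.10%, 1.58% and 1.16% of all signal in the mutant and 1.83%, 2.14% and 1.91% in the wild type. Salivary gland markers held 1.34%, 0.213% and 1.21% of the mutant signal, and 0.793% of that of wild-type replicate 3. That wild-type array was the middle one of its group in the ribosomal share and the lowest in the ATP synthesis share given below. The part of the salivary gland signal in the ribosomal protein values was not tested. Without mutant replicate 1 the median was -0.65.

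Among the probe sets whose 1 symbol is that of a ribosomal protein, the members were the brightest. There were 47 of these, for 41 genes, and some of their symbols end in -like. Probe sets with no symbol or several could not be counted, and 67 members are of that kind. Of the 47, 43 were tested, and 42 of these were below 0, or 41 after cyclic loess. Their median log2 fold change was -1.04. Lower without overlap were 9 of the 11 members and 28 of the 32 others, against 13.4% of all tested probe sets. The 11 members had a median of -0.75 and the 32 others a median of -1.09. The only probe set of the 43 that passed was a dimmer probe set of RpL3 (mean wild-type signal 504), at -1.70 on the log2 scale (limma adjusted p = 0.0311). The RpL3 member itself had a mean wild-type signal of 7771, and a further RpL3 probe set, with a mean of 69.1, had a log2 fold change of -1.03.

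**Figure D3:**
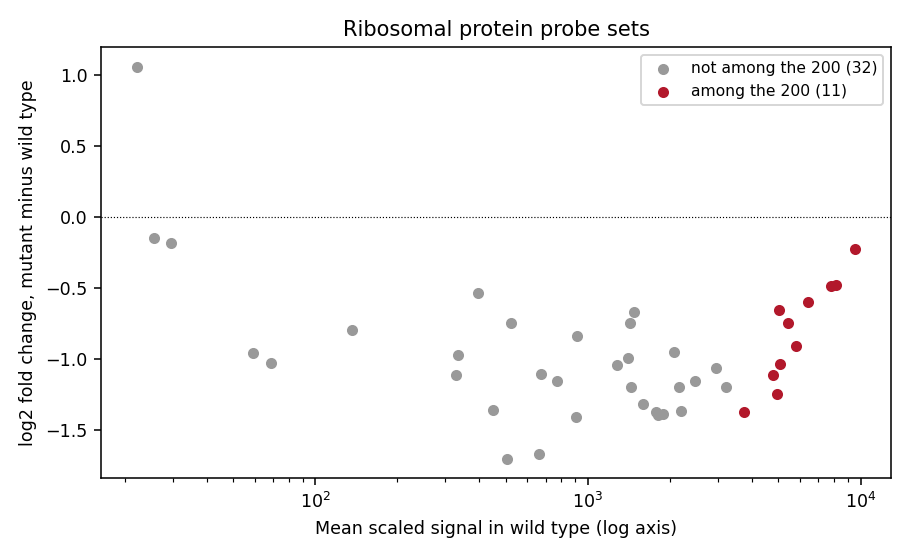
Log2 fold change, mutant minus wild type, of 43 tested probe sets with a ribosomal protein symbol against their mean scaled signal in wild type (log axis), with 1 point per probe set. The wild-type mean enters both axes. Points of the 11 members run from -1.37 at the dim end to -0.22 at the brightest, RpLP0.

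All named members with further probe sets were compared in the same way. Counting RpL3, there were 12 such genes, with 16 tested probe sets outside the list. Of 11 pairs in which the member was below 0, both were below 0 in 8, and in all 8 the dimmer probe set outside the list was the lower one. The other 3 pairs were 1 of CG32425, with -0.0024 for the member and 0.90 for the dimmer probe set (limma adjusted p = 0.0951 for the latter), and 2 of Gpdh1, the glycerol-3-phosphate dehydrogenase. The Gpdh1 members at ranks 22 and 72 had log2 fold changes of -0.80 and -0.72, and the dimmer probe sets, with mean wild-type signals of 2338 and 192, had 0.09 and 0.02. These 4 probe sets of Gpdh1 did not pass the test. Among the 8 pairs, RpL3 and Muc68Ca had 2 each, and ergic53 differed little, at -0.258 for the member and -0.267 for the other. Pairs with the member above 0 went both ways. The dimmer probe set was at 0.30 against 0.26 for PCB and at 0.45 against 0.16 for CG5953. For trol the dimmer ones were at 0.29 and -0.08 against 0.33, and for Vha16-1 at -0.03 against 0.04.

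The translation factors and ribosome-associated proteins had a median log2 fold change of -0.37 over 7 members, and 5 were lower without overlap, against 13.4% of all tested probe sets. Their median was -0.20 after quantile normalization and -0.15 after cyclic loess. Nacalpha, a subunit of the complex that binds nascent chains at the ribosome, had 1848, 2860 and 2001 in the mutant and 4654, 5135 and 4087 in the wild type. No mutant array reached the wild type, and the log2 fold change was -1.07 (standard error 0.20, limma adjusted p = 0.0636). The initiation helicase eIF4A had 3760, 4151 and 3949 against 5717, 6527 and 5600, or -0.59 on the log2 scale (limma adjusted p = 0.0948), and its mutant values also lay below all wild-type values. The elongation factor subunits eEF1gamma and eEF1delta were at -0.21 and -0.37, eEF5 at -0.36, the ribosomal scaffold Rack1 at -0.46 and the poly(A)-binding protein pAbp at 0.02. None of the 7 passed (limma), and 5 were lower at an unadjusted p under 0.05, against 12.3% of all tested. Without mutant replicate 2, 4 of the 7 were called lower, against 16.6% of all tested.

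Members of the endoplasmic reticulum and secretory pathway went both ways. Over 9 members the median was -0.37, with 5 lower and 2 higher without overlap, against 13.4% and 16.6% of all tested probe sets, and 1 call, Fkbp14. The median was -0.18 after quantile normalization and -0.13 after cyclic loess, and Fkbp14 was not called under either. Among the lower were 2 subunits of the translocation channel. Sec61alpha had 4709, 4983 and 4490 in the mutant and 6310, 7741 and 6690 in the wild type. Sec61beta had 2909, 4920 and 3435 against 5237, 6918 and 5615. Neither gene's groups overlapped, and they differed by -0.54 and -0.68 on the log2 scale (limma adjusted p = 0.111 and 0.139). The chaperone Hsc70-3 was at 0.07, the disulphide isomerase ERp60 at 0.16 and the signal peptide peptidase Spp at 0.08. TRAM and Gp93 were both at -0.37, and the cargo receptor ergic53 at -0.26.

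Mitochondrial members were in 2 role groups. The 8 members of ATP synthesis and its carriers were ATPsynbeta, ATPsynC, blw, ATPsyngamma and ATPsynO of the ATP synthase, Cyt-c1 of the electron transport chain, and the carriers Mpcp2 for phosphate and sesB for ADP and ATP. All 8 were below 0, from -0.87 to -0.34, with a median of -0.58, and they were so under quantile normalization, median centring and cyclic loess, with medians of -0.42, -0.70 and -0.35. In 1 of the 8, Mpcp2, the groups did not overlap, where 13.4% of all tested probe sets were lower without overlap. None passed (limma), and 4 had an unadjusted p under 0.05, against 12.3% of all tested. All 8 were called lower without mutant replicate 2, against 16.6% of all tested, and without mutant replicate 1 their median was -0.45. With any 1 array other than mutant replicate 2 left out, 0 of the 8 were called.

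ATPsynO had 1592, 3776 and 1618 in the mutant and 3951, 4224 and 3537 in the wild type. Cyt-c1 had 1799, 3607 and 1849 against 3987, 4350 and 3389. In both, mutant replicates 1 and 3 were below every wild-type array and mutant replicate 2 lay inside the wild-type range. The log2 fold changes were -0.87 and -0.76 (standard errors 0.33 and 0.28, limma adjusted p = 0.163 and 0.157). Together the 8 probe sets held 0.741%, 1.30% and 0.789% of all signal in the mutant and 1.34%, 1.38% and 1.18% in the wild type. The salivary gland markers followed the reverse order among the mutant arrays. Wild-type replicate 3, which had the most salivary gland signal of its group, had the lowest share of its group here. The part of the salivary gland signal in these values was not tested.

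Of the listed nuclear-encoded genes of oxidative phosphorylation, 17 probe sets were tested, and all 17 were below 0, with a median of -0.76. None of the 17 passed (limma), and 8 had an unadjusted p under 0.05 (12.3% of all tested probe sets were lower at that level). All 17 were called lower without mutant replicate 2 (16.6% of all tested), and 0 with any other 1 array left out. The 5 that were members had a median of -0.58 and the 12 others -0.80. Transcripts of the mitochondrial genome were not analysed here.

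The 7 enzymes of the mitochondrial matrix did not share a direction. Their median was -0.08, and it turned to 0.09 after quantile normalization and 0.14 after cyclic loess. Pyruvate carboxylase (PCB) had 7224, 5930 and 5699 in the mutant and 4956, 5579 and 5093 in the wild type, or 0.26 on the log2 scale (limma adjusted p = 0.252), with no overlap. The pyruvate dehydrogenase subunit muc (rank 200) had 1647, 3300 and 1947 against 4473, 4104 and 3034, at -0.80 (limma adjusted p = 0.150), with mutant replicate 2 inside the wild-type range. Glutamate dehydrogenase (Gdh) was at 0.16, the aminotransferase Got2 at -0.22 and the enoyl-CoA hydratase Echs1 at -0.42.

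**Figure D4:**
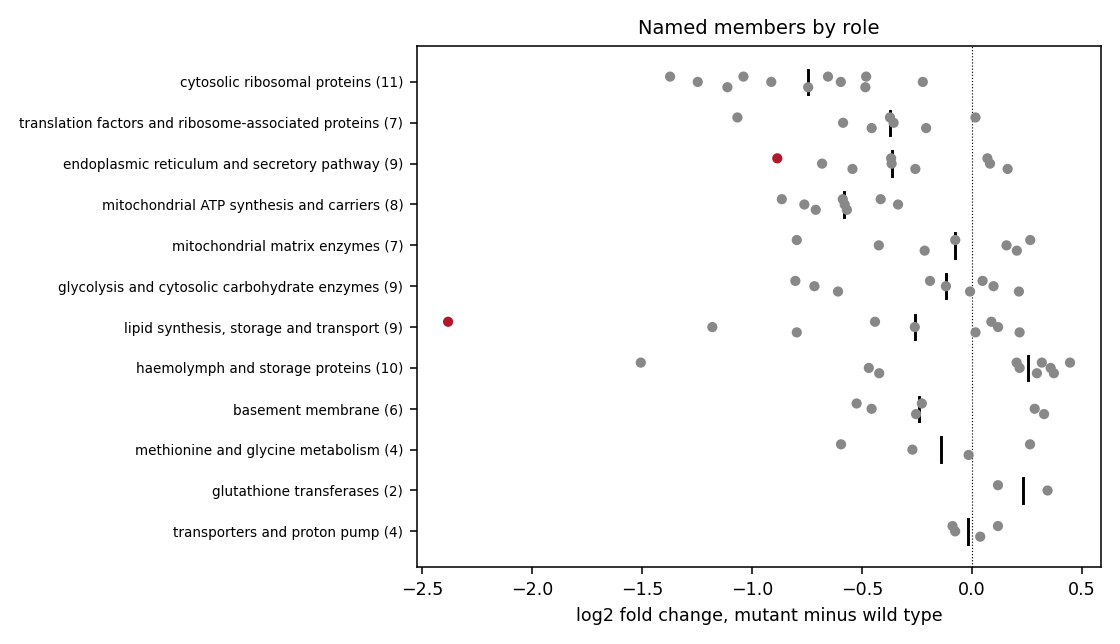
Log2 fold change, mutant minus wild type, of the 86 members with a role, 1 point per probe set, with the number of members in brackets. Vertical bars are medians, and red points passed the test (Ldsdh1 and Fkbp14). All ribosomal proteins (RpLP0 turned to 0.04 after cyclic loess) and all members of mitochondrial ATP synthesis lie below 0, while the other roles with more than 2 members lie on both sides.

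The enzymes of glycolysis and cytosolic carbohydrate metabolism had a median of -0.12 over 9 members, which was 0.04 after quantile normalization and 0.12 after cyclic loess. The glycolytic enzymes Gapdh1, Ald1, Tpi, Pgi and Eno lay between -0.19 and 0.10. Transaldolase (Taldo), of the pentose phosphate pathway, had 4914, 6179 and 4709 in the mutant and 7801, 9417 and 6924 in the wild type, below it in all 3 arrays, at -0.61 (limma adjusted p = 0.128). The first ranked Gpdh1 probe set had 3623, 7615 and 4205 against 8698, 9416 and 7544, with mutant replicate 2 just inside the wild-type range. None of the 9 passed (limma), and 3 were lower at an unadjusted p under 0.05, against 12.3% of all tested.

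Among the 9 members of lipid synthesis, storage and transport, the values spread most widely, from -2.38 to 0.22, with a median of -0.26. The median was -0.09 after quantile normalization and -0.02 after cyclic loess. Ldsdh1 was the only call. Acetyl-CoA carboxylase (ACC), the enzyme that commits acetyl-CoA to fatty acid synthesis, had 1081, 3122 and 1193 in the mutant and 4098, 3722 and 3097 in the wild type. Apoltp, the lipid transfer particle precursor, had 1615, 3351 and 1631 against 3673, 3868 and 3271. In both, mutant replicates 1 and 3 were far below the wild type and mutant replicate 2 was within its range. Their log2 fold changes were -1.18 and -0.80 (standard errors 0.39 and 0.29, limma adjusted p = 0.142 and 0.154).

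The lipid droplet protein Lsd-1, a perilipin, had 7253, 3828 and 5601 in the mutant and 4747, 5176 and 4951 in the wild type, at 0.12 (limma adjusted p = 0.746), with mutant replicate 2 lowest of all. The other fly perilipin, Lsd-2, was not a member, with 4050, 3587 and 3142 against 1356, 1221 and 1613. It rose by 1.36 on the log2 scale (limma adjusted p = 0.0142). Desat1, a fatty acid desaturase, was at -0.26 and acetyl-CoA synthetase (AcCoAS) at -0.44, both with every mutant array below every wild-type array. The fatty acid binding protein fabp was at 0.09.

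The haemolymph and storage proteins had a median of 0.26 over 10 members, with 7 above 0 and 3 below. It was 0.04 without mutant replicate 1, 0.09 after quantile normalization and 0.52 after cyclic loess. None passed (limma), and 1 was higher at an unadjusted p under 0.05, against 15.0% of all tested. Fbp2, a fat body protein of the alcohol dehydrogenase family, had 15839, 9985 and 9998 in the mutant and 6932, 9259 and 9758 in the wild type, just above it in all 3 arrays, at 0.45 (limma adjusted p = 0.238). Fer1HCH (rank 199), the ferritin heavy chain, had 4518, 3873 and 4073 against 3077, 3274 and 3262, at 0.37 (limma adjusted p = 0.142), also with no overlap. Obp99b, of the odorant-binding protein family, was at 0.36.

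The lowest of these was Nplp2, annotated as a neuropeptide-like precursor. It had 1013, 7043 and 1253 in the mutant and 6891, 6443 and 4651 in the wild type. Mutant replicate 2 was the highest of all 6 arrays, and the other mutant arrays were the lowest. Its log2 fold change was -1.51 (standard error 0.69, limma adjusted p = 0.20), and it was -2.39 without mutant replicate 2. The chitinase-like growth factors Idgf2, Idgf4 and Idgf6 were at -0.47, -0.42 and 0.22. Signal in the 10 probe sets was 2.86%, 2.17% and 1.98% of the total in the mutant and 1.82%, 2.11% and 1.99% in the wild type, with overlapping groups and mutant replicate 1 highest.

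**Figure D5:**
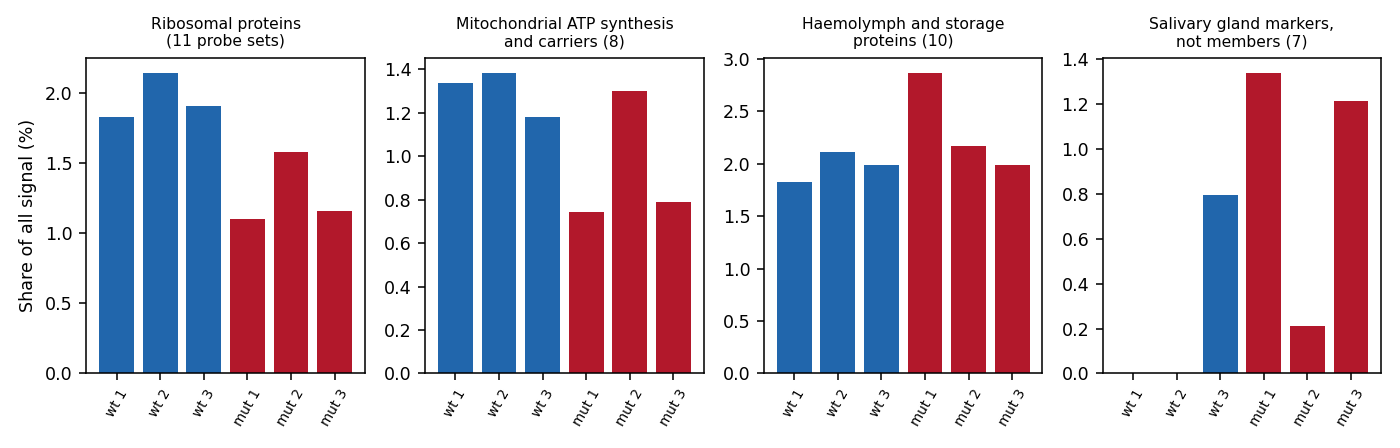
Share of all scaled signal (%) held by 3 role groups of members and by the 7 salivary gland markers, in the wild-type (wt, blue) and mutant (mut, red) arrays, 1 bar per array. Ribosomal proteins are below the wild type in every mutant array, at 1.10% to 1.58%. In the ATP synthesis group and in the salivary gland markers mutant replicate 2 is, of the mutant arrays, nearest to wild-type replicates 1 and 2.

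The basement membrane proteins, which fat body cells secrete, had a median of -0.24 over 6 members, and -0.0013 after cyclic loess. The collagen IV chains vkg and Col4a1 were at -0.53 and -0.46, while the perlecan gene trol was at 0.33 and 0.28 in its 2 probe sets. For vkg the signals were 4360, 6715 and 3849 in the mutant and 7145, 7399 and 6358 in the wild type, with only mutant replicate 2 in the wild-type range. The second trol probe set had 4847, 4942 and 4128 against 3663, 4019 and 3713, without overlap (limma adjusted p = 0.205). SPARC, which binds collagen IV, was at -0.25 and Glt at -0.23.

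The remaining role groups were small. In methionine and glycine metabolism the glycine methyltransferase Gnmt was at 0.26, the adenosylhomocysteinase Ahcy at -0.60, the glycine cleavage protein ppl at -0.27 and the S-adenosylmethionine synthetase Sam-S at -0.02. The glutathione transferases GstD1 and GstS1 were at 0.12 and 0.34. The citrate transporter Indy, the trehalose transporter Tret1-1 and the proton pump subunits Vha26 and Vha16-1 lay between -0.09 and 0.12. None of these 10 passed the test or had an unadjusted p under 0.05 (limma).

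Among the 47 named members with no role assigned, 3 were the calls above. Ance-4, of the angiotensin-converting enzyme family, had 3148, 2723 and 2757 in the mutant and 4565, 4750 and 4680 in the wild type. The groups were far apart with little spread, at -0.70 (standard error 0.12, limma adjusted p = 0.0538). Nurf-38, a pyrophosphatase that is a subunit of a nucleosome remodelling complex, had 1514, 4225 and 1699 against 4929, 4561 and 3957, at -1.01 (limma adjusted p = 0.158), with mutant replicate 2 in the wild-type range. The transcription factor gene crc, the fly ATF4, had 6412, 4012 and 5028 against 3497, 4164 and 3914, at 0.39 (limma adjusted p = 0.220), again with overlap through mutant replicate 2.

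The 64 members with no symbol had a median of -0.46, against -0.23 for the 133 with 1 symbol. In 37 of the 64 every mutant array was below every wild-type array, or 57.8%, and none was higher without overlap, against 13.4% and 16.6% of all tested probe sets. None of the 64 passed (limma), and 36 were lower at an unadjusted p under 0.05, against 12.3% of all tested. The unnamed member with the lowest log2 fold change, at rank 185, had 1087, 2021 and 1127 in the mutant and 3370, 4045 and 3235 in the wild type, at -1.38 (limma adjusted p = 0.0639). The unnamed member at rank 1 had 22985, 11648 and 11304 against 10160, 13491 and 12268, with mutant replicate 1 above all others.

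Lists of 200 chosen in the same way on the wild-type and on the mutant arrays shared 153 probe sets, which is 76.5% of each list. Of the 47 that were in the wild-type list alone, 3 were called lower in the mutant, and 4 were cytosolic ribosomal proteins, RpS12, RpS27A, RpS18 and RpS26. Among the 47 in the mutant list alone, 4 were called higher, of which Lsd-2 and Tig, a secreted matrix protein, carry 1 symbol. Over all tested probe sets, 0.623% were called lower and 0.764% higher. Both lists were chosen on values that enter these calls, so nothing is read from the direction of the calls. Tig had 4657, 4116 and 4166 in the mutant and 2547, 2488 and 2327 in the wild type, and rose by 0.81 on the log2 scale (limma adjusted p = 0.0373). The salivary glue gene Sgs3 also entered the mutant list, with 13511, 2833 and 9630 in the mutant and 0.667, 0.679 and 7343 in the wild type, so the groups overlapped (limma adjusted p = 0.163). Fbp1, the fat body receptor for larval serum proteins, was in neither list, with 10594, 1167 and 7240 against 101, 41.0 and 3342 (limma adjusted p = 0.165). In Fbp1, as in Sgs3, wild-type replicate 3 and mutant replicates 1 and 3 were the high arrays.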

How the data were processed

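Gene expression was measured with single-colour Affymetrix arrays in 3 srl1 mutant and 3 wild-type samples. Per the labels' protocols, 2 cycles of amplification started from 30 ng of total RNA, and the product carried biotin. The authors deposited 1 intensity per probe set and array, on a linear scale. The submitters' processing notes name GCOS 1.4 and MAS5, with settings not given in the sources used here. Detection calls were not used. Groups and replicate numbers were taken from the sample titles. The description of the third mutant sample repeats the name of the second.

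Each array was divided by its 2% trimmed mean and multiplied by the mean of the 6 trimmed means, over all probe sets. Leaving the 183 control probe sets out of the trimmed means gave the same 200 members. Probe sets that reached 20.2 in 3 or more arrays were tested on log2(signal + 5) with limma 3.58.1 in R 4.3.3 (lmFit, eBayes with an intensity trend), two-sided. Benjamini-Hochberg adjustment ran over all 8506 tested probe sets, with a threshold of 0.05. The pseudocount of 5 shrinks fold changes of dim probe sets and hardly touches the members. Having 3 arrays per group limits the precision of each value.

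Gene symbols come from the platform annotation of the array, which can be old: 13647 probe sets had 1 symbol, 402 several and 4720 none. Of the named ones, 13544 were matched by gene ID to RefSeq's table of assembly Release 6 plus ISO1 MT, and 0 symbols changed. Sequences are not shown, since no sequence table was used here. The members, gene lists and roles were chosen with earlier results of these data known. By rule the text names the 10 highest ranked members, up to 10 calls in each direction and the 3 probe sets on each side of the limit, where they have a symbol. All other members and genes were named for their role and chosen after their values were seen.

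Alternatives were median centring, quantile normalization, no filter or a stricter one, a pseudocount of 1 or 20, eBayes without trend or with robust variances, the replicate block, leaving out each array, and other choices of members. Cyclic loess, trimmed means without control probe sets and leaving out mutant replicate 2 with wild-type replicate 3 were added after seeing the data.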

Additional observations from a re-analysis of the deposited data

How the results depend on the processing

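The count of members called higher, 1 as reported, was 0 with median centring, without a filter, without an intensity trend and with the 100 highest ranked, 3 with 400, 2 for members chosen by the mean of 6 arrays and 5 for those chosen on the mutant arrays. The count called lower, 4 as reported, was 2 with quantile normalization, 1 without a filter, 0 without a trend and for the 100 highest ranked, 7 for 400, 2 by the mean of 6 arrays and 1 on the mutant arrays. With cyclic loess the counts were 1 and 6, and with median centring 0 and 5. Leaving out each array gave 0 to 8 higher and 0 to 103 lower, where both highest counts are without mutant replicate 2 and every other array left out gave 0 and 0. Without mutant replicate 2 and wild-type replicate 3 they came to 4 and 99. The members' median, -0.34, was -0.10 with cyclic loess and -0.030 for members chosen on the mutant arrays, and -0.45 to -0.26 with 1 array left out.

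The difference in the share of each array's own brightest probe sets, -1.0 percentage points for 200, was 0.155 for the 100 brightest (exact permutation test, two-sided, p = 0.9) and -2.02 to 0.000598 with 1 array left out, above 0 only without wild-type replicate 2. The members' mean share in the mutant, 30.0%, was 19.6% for 100 and 42.9% for 400 members.

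FASN1, at 0.02 as reported, turned to -0.092 with quantile normalization, -0.10 with median centring and -0.0085 without mutant replicate 2 and wild-type replicate 3. With 1 array left out it ran from -0.087, without mutant replicate 1, to 0.12. The value of fon turned to -0.0089 with quantile normalization, that of apolpp ran from -0.0026, without mutant replicate 1, to 0.33 with 1 array left out, and that of RpLP0 turned to 0.044 with cyclic loess. These 9 were the only reversals among 234 values of 13 named members under 18 alternatives. Another 174 kept direction and side of the threshold, 46 no longer passed and 5 newly passed. The cause was not tested for any of these.

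Deviations of same-numbered arrays from their group means correlated at -0.35, -0.11 and 0.45 for numbers 1, 2 and 3. With 3 arrays per group these values cannot decide whether replicate numbers pair the samples. With the replicate block 0 members were called higher and 0 lower, and over all probe sets 10 and 6.

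The geometric mean of the deposited signals of the first 10 members was 7065 in mutant replicate 1 and 10901 to 11579 in the other arrays. How these signals relate to amounts of RNA was not tested. Signals of different probe sets cannot be ranked as amounts, and 67 members have no single symbol here.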
